A study of Mus musculus with 6 samples.

Results

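TREM2 is a lipid-sensing receptor of macrophages and microglia that signals through the adaptor TYROBP (DAP12), and APOE is the apolipoprotein with which macrophages release cholesterol. Macrophages that take up lipoproteins or dying cells store the lipid as droplets and export sterol through the transporters ABCA1 and ABCG1, which are targets of the oxysterol-activated nuclear receptor LXRα, encoded by Nr1h3. In lipid-laden tissue macrophages, these genes are known to be expressed together with Gpnmb, Lpl, Fabp5 and Spp1.

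These 10 genes (Apoe, Trem2, Tyrobp, Gpnmb, Lpl, Fabp5, Spp1, Abca1, Abcg1 and Nr1h3) were followed among the 16254 genes counted in cultured mouse eosinophils. All 10 were found by symbol, and all 10 were among the 13498 genes that passed the filter on low counts. The genes were chosen by their values in EV- versus sham-treated eosinophils, with Apoe, Trem2 and Gpnmb already noted as lower, so that their differences between the groups are descriptions and carry no test. Eosinophils were differentiated from C57BL/6 bone marrow, first with FLT3 ligand and stem cell factor and then with IL-5, and were then kept for 24 h with activated TH2 cell EVs or with a sham control of unconditioned media put through the EV purification in parallel. Poly(A)-selected RNA was sequenced in bulk from 3 sham-treated and 3 EV-treated cultures, which the labels number as biological replicates without naming the mice behind them. The comparison asks how activated TH2 cell EVs change eosinophil gene expression.

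The estimated counts summed to between 23697620 and 37874426 per library, and values are given as normalized counts, scaled to a common library of 30852523 counts. Of all genes tested, 12.1% rose (1632 genes) and 11.6% fell (1572 genes) with EVs, at a threshold of 0.01 on the Benjamini-Hochberg adjusted p of edgeR's quasi-likelihood test. Scaled by library totals only, the split was 1036 higher and 2342 lower, with the median log2 fold change of all genes at -0.16 instead of -0.01. Without EV replicate 3 the counts were 1071 higher and 1018 lower, and without EV replicate 2 the lower count was 1044. No pair of replicates agreed within sampling noise, with a chi-square per gene between 8.37 and 31.8.

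Of the 10 genes, 9 had lower values and 1 had higher values in EV-treated eosinophils. The groups did not overlap for any of the 10 genes, as for 49.6% of all genes tested. The log2 fold change was -1 or less for 8 of the 10 genes, against 11.9% of all genes, and its median was -2.65. These counts repeat the way the genes were chosen. The libraries are from bulk RNA, and values are relative to each library. Fewer cells of a type, less RNA per cell and more RNA from other cells therefore cannot be told apart in any of these differences. The authors reported higher eosinophil survival with such EVs than without treatment, and its part in these values was not tested.

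**Figure D1:**
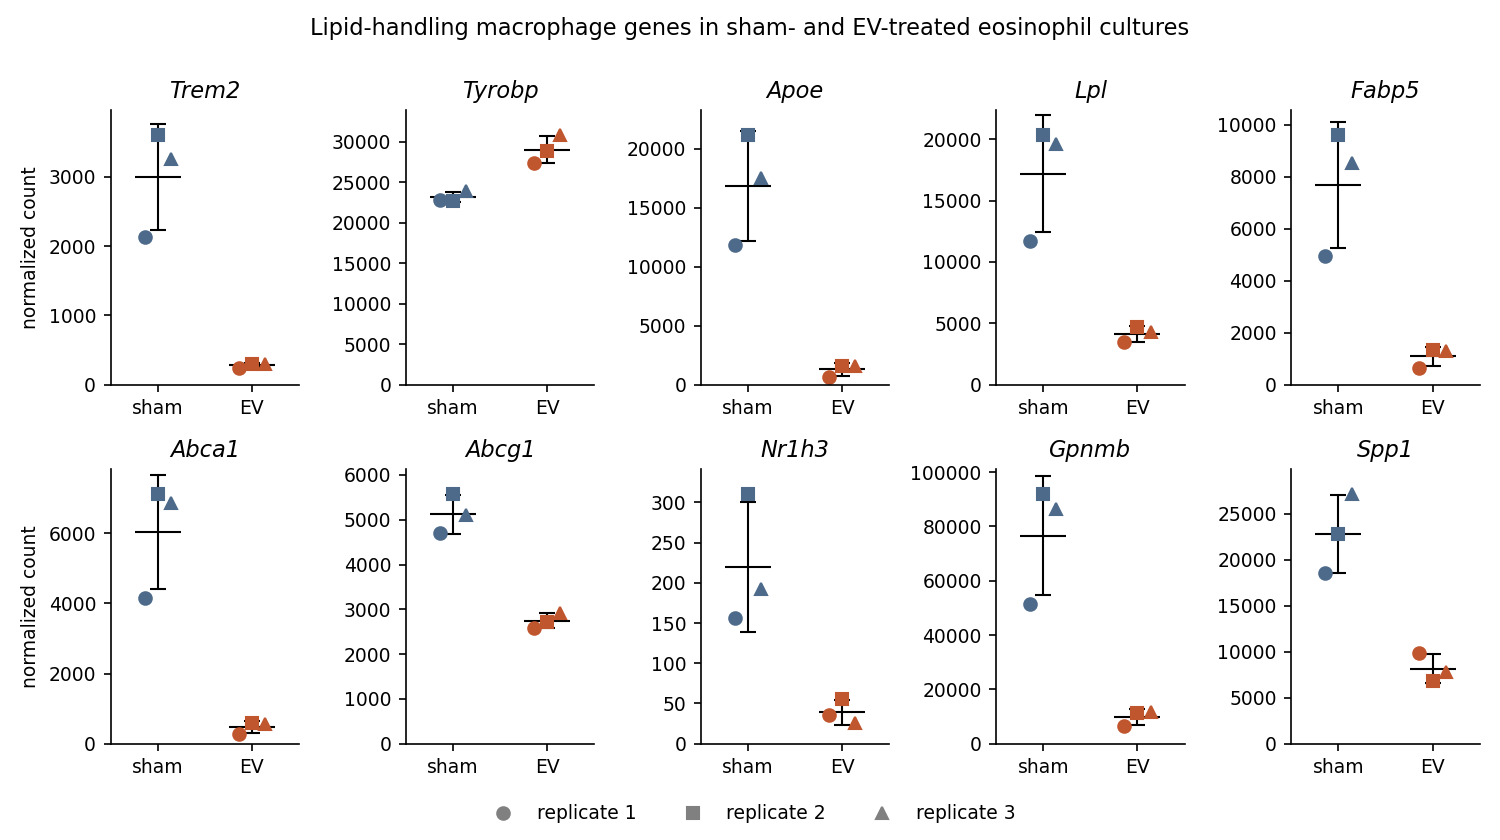
Normalized counts of the 10 lipid-handling genes in each of the 6 libraries, with 1 panel per gene and a linear axis from 0. Circles, squares and triangles are replicates 1, 2 and 3, and lines with bars are the group mean and SD (n = 3). In every panel but that of Tyrobp the 3 EV-treated libraries lie below the 3 sham-treated libraries.

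Trem2, the lipid-sensing receptor (chr17:48346401-48354147, plus strand, GRCm38), had 2136, 3603 and 3255 normalized counts in sham replicates 1 to 3 and 244, 291 and 298 in EV replicates 1 to 3. The lowest sham library was thus 7.18 times the highest EV library. The group means of 2998 ± 766 and 278 ± 29.5 (SD, n = 3) gave a log2 fold change of -3.43 (SE 0.188).

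Tyrobp, the adaptor that carries the activating signal of TREM2 and of several other receptors (chr7:30413760-30417585, plus strand), differed from the other 9 genes in direction. Its normalized counts were 22871, 22722 and 23916 in the sham libraries and 27451, 28891 and 30829.6 in the EV libraries, so that every EV library was above every sham library. The means of 23169.5 ± 651 and 29057 ± 1696 (SD, n = 3) gave a log2 fold change of 0.33 (SE 0.0572), which was 0.18 when libraries were scaled by their totals only. The receptor and its adaptor therefore had opposite directions in the same 6 libraries.

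Apoe, the apolipoprotein (chr7:19696109-19699188, minus strand), had the largest difference of the 10 genes. Its normalized counts were 11863, 21152 and 17544 with sham control and 674, 1599 and 1571 with EVs, and the lowest sham library was 7.42 times the highest EV library. The group means of 16853 ± 4683 and 1282 ± 526 (SD, n = 3) gave a log2 fold change of -3.71 (SE 0.318). Replicate 1 was the lowest library in both groups.

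Lpl, the lipase that releases fatty acids from lipoprotein triglyceride (chr8:68880491-68907448, plus strand), had 11692, 20327 and 19596 normalized counts in the sham libraries and 3447, 4711 and 4253 in the EV libraries. All EV libraries were lower, and replicate 1 was again lowest in each group. The means were 17205 ± 4789 and 4137 ± 640.0 (SD, n = 3), and the log2 fold change was -2.06 (SE 0.194). Fabp5, a cytosolic fatty acid carrier (chr3:10012548-10016607, plus strand), had 4949, 9601 and 8513 normalized counts with sham control and 645, 1327 and 1278 with EVs. In both groups its replicate 1 was 0.546 and 0.496 of the mean of the other replicates. The means of 7688 ± 2433 and 1083 ± 380.0 (SD, n = 3) gave a log2 fold change of -2.82 (SE 0.294). For Fabp5, 9.21% of 31-base words are shared with other genes, so that its estimated counts depend on how such reads were assigned.

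Abca1, the transporter that loads cholesterol onto lipid-poor apolipoproteins (chr4:53030787-53159895, minus strand), was next to Apoe in the size of its difference. Its normalized counts were 4164, 7114 and 6855 in the sham libraries and 272, 586 and 571 in the EV libraries, with no overlap. The means were 6044 ± 1634 and 476 ± 177 (SD, n = 3), with a log2 fold change of -3.66 (SE 0.288). Abcg1, the transporter that passes cholesterol to mature high-density lipoprotein (chr17:31057675-31117988, plus strand), differed far less. Its normalized counts were 4695, 5568 and 5108 with sham control and 2589.5, 2722 and 2928 with EVs. The groups did not overlap, and the means of 5124 ± 436 and 2747 ± 171 (SD, n = 3) gave a log2 fold change of -0.90 (SE 0.0791). Of the 9 lower genes, Abcg1 had the smallest difference.

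Nr1h3, encoding LXRα (chr2:91184061-91202834, minus strand), had 156, 310.1 and 192 normalized counts in the sham libraries and 35.97, 55.7 and 25.2 in the EV libraries. All EV libraries were lower than all sham libraries, but at counts where counting error adds to the spread: the estimated counts behind the EV values were 36, 65 and 29. The means were 219 ± 80.6 and 39.0 ± 15.5 (SD, n = 3), and the log2 fold change was -2.48 (SE 0.366), the largest SE of the 10 genes.

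Gpnmb, a transmembrane glycoprotein of lysosome-rich macrophages and osteoclasts (chr6:49036546-49070929, plus strand), had 51577, 91829 and 86384 normalized counts with sham control and 6488, 11335 and 11511 with EVs. It alone made up 0.174% to 0.316% of all counts in the sham libraries and 0.0201% to 0.0351% in the EV libraries. The means of 76597 ± 21838 and 9778 ± 2851 (SD, n = 3) gave a log2 fold change of -2.97 (SE 0.256). Spp1, encoding the secreted matrix protein osteopontin (chr5:104435118-104441050, plus strand), had 18552, 22766 and 27097 normalized counts in the sham libraries and 9866, 6812 and 7739 in the EV libraries. The groups were apart, but among EV libraries replicate 1 was highest. Its means were 22805 ± 4273 and 8139 ± 1565 (SD, n = 3), with a log2 fold change of -1.49 (SE 0.153). Of the 31-base words of Spp1, 14.3% are shared with another annotated gene, so that some of its reads are ambiguous.

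**Figure D2:**
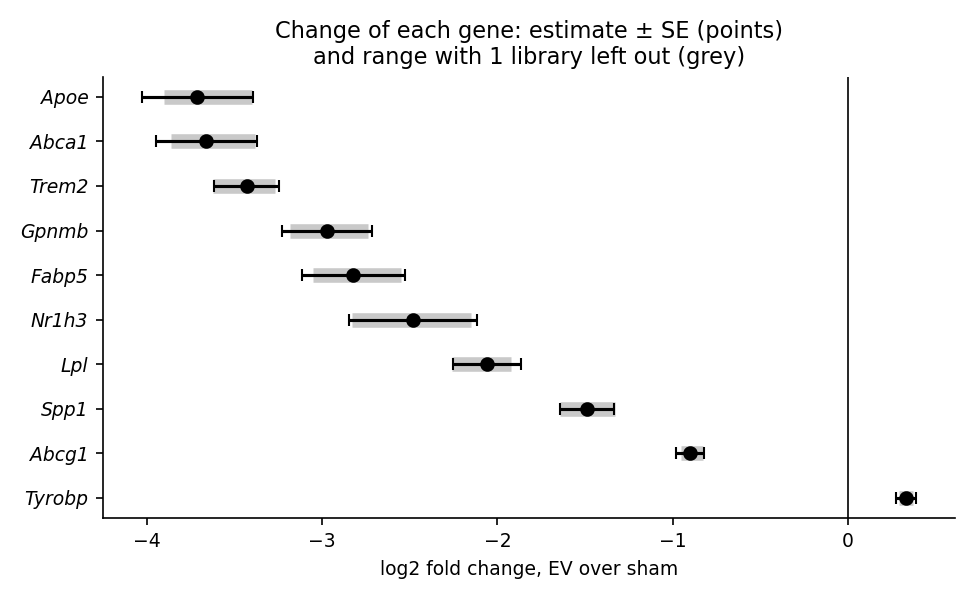
Log2 fold change of the 10 genes in EV- versus sham-treated eosinophils. Points with bars are the estimate and its SE from the edgeR fit (3 against 3 libraries), and grey bands are the range when 1 library was left out. Apoe, Abca1 and Trem2 lie furthest below 0, Abcg1 is nearest to 0 among the lower genes, and Tyrobp lies above 0.

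The promoters of the 3 genes noted as strongly lowered, and of Abca1 as the gene closest to Apoe in its difference, are shown so that their sequence features can be compared. Promoters were found in RefSeq for Apoe, Trem2, Gpnmb, Spp1, Abca1 and Nr1h3. The 250 bases before the annotated start are given 5′ to 3′ on the strand of the gene (RefSeq, GRCm38.p6), at chr7:19699189-19699438 on the minus strand for Apoe, chr17:48346151-48346400 on the plus strand for Trem2, chr6:49036268-49036517 on the plus strand for Gpnmb and chr4:53159896-53160145 on the minus strand for Abca1. Capitals mark matches to the motifs searched.
Apoe: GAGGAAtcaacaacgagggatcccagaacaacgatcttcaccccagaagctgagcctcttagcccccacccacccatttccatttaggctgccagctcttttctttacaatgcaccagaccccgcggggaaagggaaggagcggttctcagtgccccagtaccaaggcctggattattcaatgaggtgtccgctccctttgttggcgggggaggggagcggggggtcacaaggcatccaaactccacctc
Trem2: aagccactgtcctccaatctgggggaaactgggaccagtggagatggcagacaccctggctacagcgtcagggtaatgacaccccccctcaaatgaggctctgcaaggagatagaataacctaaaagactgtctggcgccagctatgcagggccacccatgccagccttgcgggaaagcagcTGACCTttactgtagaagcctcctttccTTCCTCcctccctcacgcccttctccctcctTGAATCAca
Gpnmb: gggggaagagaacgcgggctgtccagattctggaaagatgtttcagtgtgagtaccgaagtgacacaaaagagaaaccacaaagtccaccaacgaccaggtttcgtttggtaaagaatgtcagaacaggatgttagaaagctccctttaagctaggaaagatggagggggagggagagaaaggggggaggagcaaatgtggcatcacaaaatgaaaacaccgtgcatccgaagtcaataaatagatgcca
Abca1: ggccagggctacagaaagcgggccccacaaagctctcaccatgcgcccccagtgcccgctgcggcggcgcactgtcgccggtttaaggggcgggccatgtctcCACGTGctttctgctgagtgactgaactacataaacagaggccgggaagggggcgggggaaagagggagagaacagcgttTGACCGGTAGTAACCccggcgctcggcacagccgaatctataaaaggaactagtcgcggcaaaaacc

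Both strands were searched for GAGGAA (the core bound by PU.1, the myeloid lineage factor), CACGTG (the E-box bound by MITF and TFE factors), TGANTCA (AP-1), TTCNNNGAA (STAT), AGGTCA (a nuclear receptor half-site) and a relaxed form of the DR4 element that LXR and RXR bind (2 copies of GGTNA with 5 bases between them). GAGGAA was found in 3 of the 6 promoters, those of Apoe, Trem2 and Spp1, against 23.3% of 32851 mouse promoters of the same length. The Trem2 promoter also held TGANTCA, found in 6.75% of promoters, 9 to 3 bases before the start, and AGGTCA on the opposite strand, found in 14% of promoters, 68 to 63 bases before the start. The Abca1 promoter held CACGTG, found in 6.02% of promoters, 147 to 142 bases before the start, and the DR4 element on the opposite strand, found in 0.621% of promoters, 67 to 53 bases before the start. No match overlapped another. TTCNNNGAA, found in 7.02% of promoters, was in 0 of the 6, and the windows of Gpnmb and Nr1h3 held none of the 6 motifs. Apoe had 3 RefSeq starts and Spp1 and Nr1h3 had 2 each, and only the start nearest the GENCODE gene start was searched. For Nr1h3 that window (chr2:91195117-91195366) lies inside the gene span given above, so other starts of the gene were not covered. A match describes the letters of the window only, and binding of these factors was not measured here.

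Levels of the 10 genes relative to each other were compared as counts-per-million (CPM) values per kilobase of merged exons. With sham control, Tyrobp had the highest level at 1126 ± 31.6, followed by Spp1 at 449 ± 84.0, Gpnmb at 381 ± 109 and Apoe at 255 ± 71.0 (SD, n = 3). Fabp5 (69.9 ± 22.1), Lpl (53.2 ± 14.8), Abcg1 (22.8 ± 1.94), Trem2 (19.6 ± 5.02), Abca1 (18.9 ± 5.11) and Nr1h3 (2.83 ± 1.04) came next in that order. The ranges of neighbours overlapped for Spp1 and Gpnmb, Gpnmb and Apoe, Fabp5 and Lpl, Abcg1 and Trem2, and Trem2 and Abca1. Ranges were compared over the libraries and not within each library, so an overlap does not show that neighbours were alike. With EVs, Tyrobp was still highest at 1412 ± 82.4, and the other levels ran from 160.1 ± 30.8 for Spp1 to 0.502 ± 0.199 for Nr1h3. By mean, the gene that changed place was Fabp5 (9.84 ± 3.45), which lay above Lpl with sham control. With EVs it came after Lpl (12.8 ± 1.98) and Abcg1 (12.2 ± 0.757), and before Trem2 (1.82 ± 0.193) and Abca1 (1.49 ± 0.555). The ranges with EVs overlapped for Apoe and Lpl, Lpl and Abcg1, Abcg1 and Fabp5, and Trem2 and Abca1.

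The spread between replicates was wide for these genes. The median coefficient of variation over the 10 genes was 27.4% among sham libraries and 24.2% among EV libraries, against 10.1% and 5.55% over the 10454 genes with a mean normalized count over 100. Tyrobp (2.81% and 5.84%) and Abcg1 (8.52% and 6.21%) were the genes with the least spread, and Apoe (27.8% and 41.0%) and Nr1h3 (36.8% and 39.7%) were among those with the most. Replicate 1 was the lowest library in both groups for 7 of the 10 genes, against 13.2% of all genes tested, with Tyrobp, Spp1 and Nr1h3 as the exceptions. Replicate 1 was 0.613 of the mean of replicates 2 and 3 for Apoe in sham libraries and 0.425 in EV libraries. The same ratios were 0.579 and 0.568 for Gpnmb and 0.596 and 0.470 for Abca1, whereas the median gene with a mean normalized count over 100 was at 0.999 and 0.992. Trem2 was lower in replicate 1 mainly with sham control, at 0.623 against 0.828 with EVs. Without the replicate 1 libraries of both groups, a choice made after the data were seen, the log2 fold changes of the 10 genes kept their direction and ran from -3.61 for Apoe to 0.36 for Tyrobp, with -3.54 for Trem2 and -2.96 for Gpnmb.

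Most macrophage markers moved with the lipid-handling genes. Of 17 macrophage markers tested, 14 fell and 1 rose with EVs (edgeR, adjusted p under 0.01), against 11.6% and 12.1% of all genes. Their median log2 fold change was -2.48, against -0.01 for all genes. The colony-stimulating factor receptor gene Csf1r had 10909, 16415 and 15633 normalized counts with sham control and 5084, 6148 and 6103 with EVs (log2 fold change -1.31, adjusted p = 5.67e-05 by edgeR's quasi-likelihood test with Benjamini-Hochberg adjustment). In the same test the complement genes C1qa, C1qb and C1qc had log2 fold changes of -2.58, -2.48 and -2.56. Adgre1, encoding F4/80, which mouse eosinophils also express, rose from 21326 ± 309 to 32764 ± 727 normalized counts (SD, n = 3, log2 fold change 0.62). The mannose receptor gene Mrc1 (1379 ± 478 and 1733 ± 410.2, log2 fold change 0.34) and the Fc receptor gene Fcgr1 (155 ± 72.7 and 99.6 ± 19.8, log2 fold change -0.63) did not pass, and their groups overlapped. The defining markers Csf1r, C1qa, C1qb, C1qc and Mertk were above 0 in all 6 libraries. Cx3cr1, encoding the fractalkine receptor, had 101, 181 and 221 normalized counts with sham control and 0 in the 3 EV libraries, which is at least 61.6-fold lower against a floor of 3 counts per library, and the median of the list with this bound was also -2.48.

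Summed over the 16 macrophage markers without Adgre1, a sum formed after the data were seen, levels were 2399.7, 4224 and 4079 CPM in sham libraries and 542, 759 and 752 in EV libraries. The 9 lower lipid-handling genes summed to 3558, 5908 and 5657 CPM in sham libraries and to 786, 954 and 978 in EV libraries. Replicate 1 was lowest for both sums in both groups. Such sums weigh abundant genes most. Lyz2 was the highest of the 16 markers, at a mean of 59526 normalized counts with sham control and 6142 with EVs. Csf1r came next at 14319 and 5778. Gpnmb was the highest of the 9 genes at 76597 and 9778, and Spp1 came next at 22805 and 8139. The ratio below therefore rests largely on Gpnmb and Lyz2, above all with sham control. The ratio of the gene sum to the marker sum was 1.48, 1.40 and 1.39 with sham control and 1.45, 1.26 and 1.30 with EVs. EV replicate 1 lay within the sham values, and EV replicates 2 and 3 lay below them. With Adgre1 included, the marker sum ranged from 3087 to 4908 in sham libraries and from 1582 to 1846 in EV libraries, and the ratio was 1.15, 1.20 and 1.18 with sham control and 0.497, 0.517 and 0.540 with EVs. The mean marker sum with EVs was 0.41 of that with sham control with Adgre1 and 0.192 without it, and the mean gene sum was 0.18. The gene sum holds only genes that were lower and the sum without Adgre1 leaves out the marker that rose, so that the likeness of these values follows in part from how the sums were formed. Replicate 1 was lowest in both groups for 13 of the 17 macrophage markers and for 0 of 12 eosinophil markers, against 13.2% of all genes tested. The count was also 0 for the 11 neutrophil, 7 mast cell and basophil, and 7 stromal markers. It was 4 of 9 for dendritic cell markers, 1 of 4 for T cell markers and 1 of 4 for B cell markers. The part of macrophages in the result was not tested.

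**Figure D3:**
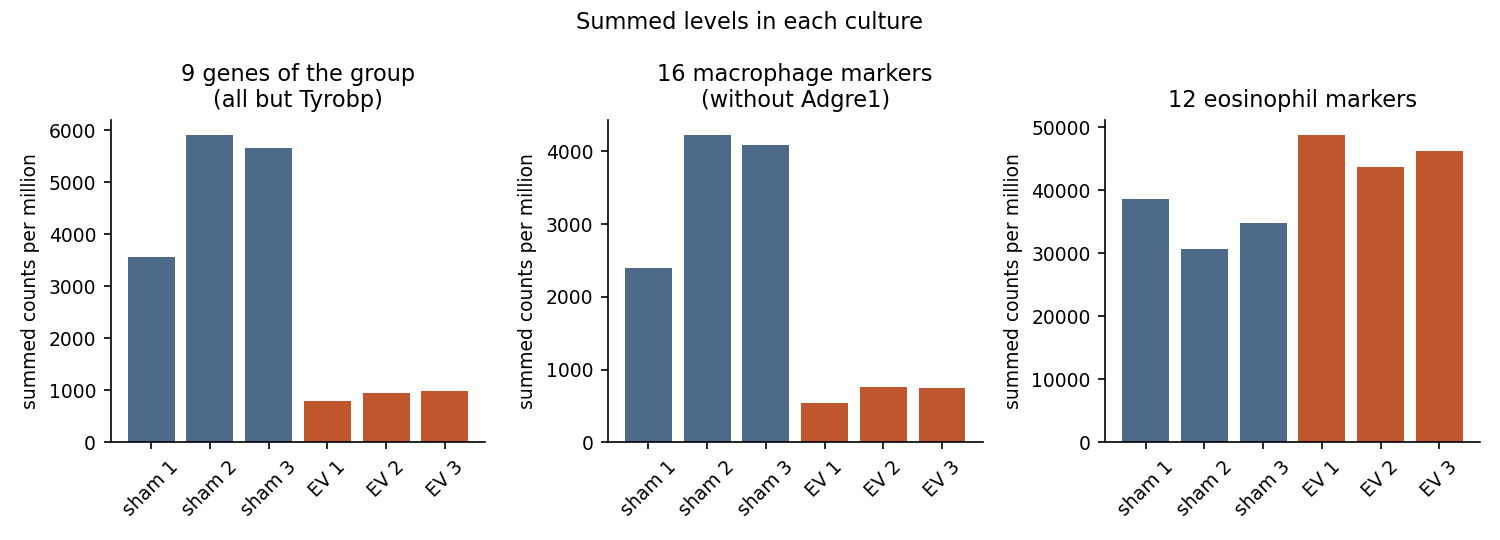
Summed CPM of the 9 lower lipid-handling genes, of macrophage markers without Adgre1 and of eosinophil markers in each library, on linear axes from 0. The first 2 sums are lowest in replicate 1 of each group and lower with EVs, and the eosinophil sum is higher with EVs.

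Eosinophil markers were abundant in all libraries and moved the other way. Their sum over 12 genes ranged from 30635 to 38578 CPM with sham control and from 43671 to 48787 with EVs. By edgeR at an adjusted p under 0.01, 8 of the 12 rose. Over all genes tested 12.1% rose and 11.6% fell, which is the background for the marker counts below too. Siglecf had a log2 fold change of 0.85, the eotaxin receptor gene Ccr3 1.13 and the peroxidase gene Epx 0.41, while the granule protein gene Prg2 (0.23) and Il5ra (-0.14) were among the 4 that did not pass. Markers of other cells had lower sums than eosinophil markers. Neutrophil markers ranged from 696 to 810.4 CPM with sham control and from 553 to 679.5 with EVs (of 11 tested, Ly6g rose and Camp, Ltf, Mmp8, S100a8 and S100a9 fell), and mast cell and basophil markers from 146 to 193 and from 375 to 443 (of 7, Mcpt8, Prss34, Cpa3, Ms4a2 and Gata2 rose). Dendritic cell markers ranged from 221 to 319.6 and from 209.7 to 279.7 (of 9, Batf3 rose), and stromal markers from 591 to 902 and from 379 to 564 (of 7, Pecam1 rose and Col1a2 fell). The collagen genes Col1a1 (log2 fold change -2.74) and Col3a1 (-2.27) were also lower without overlap between groups, but did not pass. Pdgfrb (0.24) overlapped and did not pass. T cell markers ranged from 14.6 to 34.2 and from 7.22 to 8.33 (of 4, Cd28 fell), and B cell markers from 5.72 to 6.99 and from 5.59 to 6.45. The defining eosinophil markers of the label were present in all 6 libraries, and the source of the macrophage marker RNA was not tested.

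Other genes of the pathway were taken from 6 lists without the 10 genes themselves. Over the 144 genes tested, each counted once, 64 fell (44.4%, against 11.6% of all genes) and 29 rose (20.1%, against 12.1%) by edgeR at an adjusted p under 0.01, with a median log2 fold change of -0.30. The lists were written with results of these data known.

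**Figure D4:**
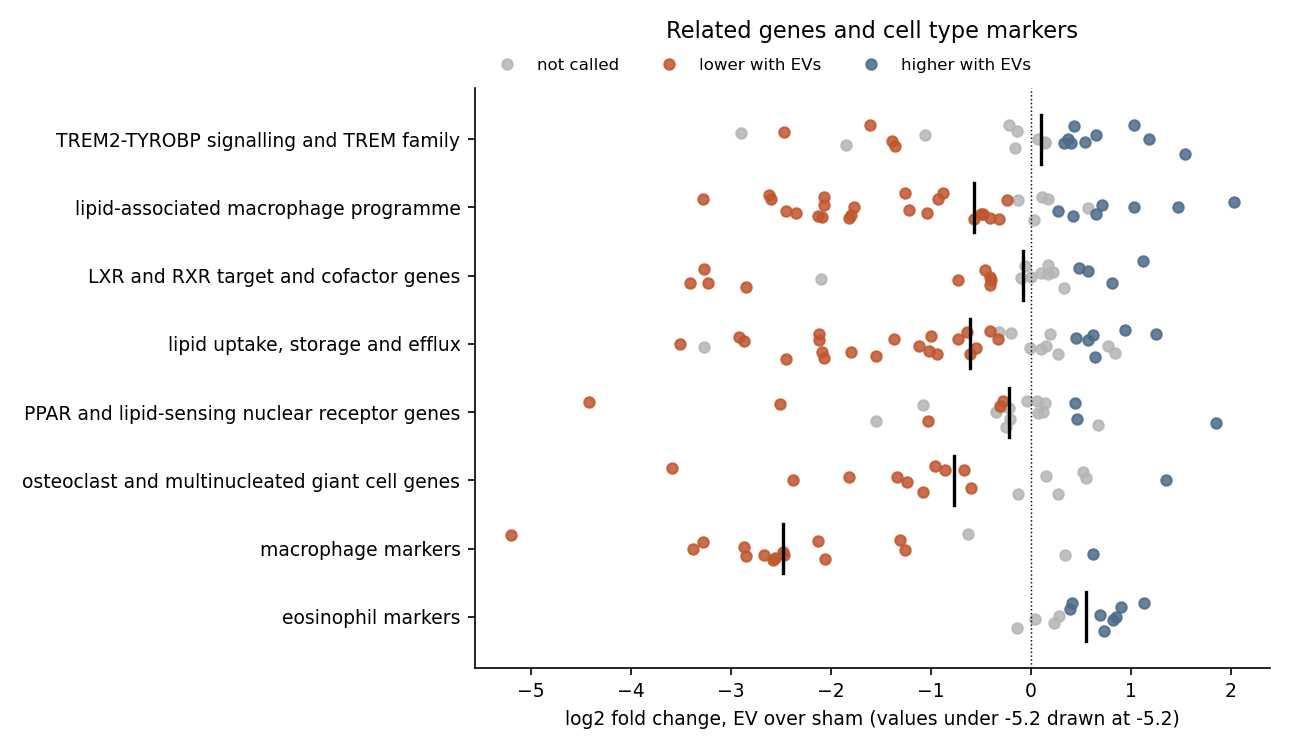
Log2 fold change of each tested gene in the 6 related lists and in the macrophage and eosinophil markers, with the list median as a black line and 0 as a dotted line. Colour gives the direction of genes at an adjusted p under 0.01 in the edgeR fit, and Cx3cr1, which had no count with EVs, is drawn at the left limit of the axis. The medians of the lipid-associated macrophage, lipid uptake and osteoclast lists lie between -0.57 and -0.76, and that of TREM2-TYROBP signalling lies at 0.11.

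In the list of TREM2-TYROBP signalling and the TREM family, 9 of 22 genes rose (40.9%, against 12.1% of all genes) and 4 fell (18.2%, against 11.6%). The median log2 fold change was 0.11. Pik3cd, encoding a leukocyte PI 3-kinase subunit, rose from 7707 ± 269 to 22405 ± 929.6 normalized counts (log2 fold change 1.54, edgeR adjusted p = 5.75e-08). Trem1, an activating receptor that shares the TYROBP adaptor, rose from 201 ± 20.1 to 411 ± 50.8 (1.03, edgeR adjusted p = 0.000709), and Hcst, encoding the related adaptor DAP10, rose from 628 ± 52.2 to 912 ± 124 (0.54, edgeR adjusted p = 0.00583). Syk, the kinase recruited by TYROBP, had 23604 ± 1405 and 26006 ± 565 normalized counts and did not pass (0.14, edgeR adjusted p = 0.0836). Of the other TREM family genes, Treml2 rose (1.18, edgeR adjusted p = 9.95e-07). Treml1 (-2.90), Treml4 (-1.85) and Trem3 (-1.06) were lower without overlap between groups, but at low counts, and did not pass. The 4 genes that fell were Ms4a7, Ms4a4a, Ms4a6d and Vav2. Ms4a7, a macrophage membrane gene, went from 1447 ± 484 to 259 ± 74.4 (-2.47), and Vav2, a guanine nucleotide exchange factor, from 534 ± 119.8 to 175 ± 55.7 (-1.61). With library totals only, 5 of the 22 genes rose.

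In the list of the lipid-associated macrophage programme, 23 of 35 genes fell (65.7%, against 11.6% of all genes) and 7 rose (20%, against 12.1%). The median log2 fold change was -0.57. Lyz2, the macrophage lysozyme gene, fell from 59526 ± 18132 to 6142 ± 1375 normalized counts (log2 fold change -3.28, edgeR adjusted p = 4.59e-06). Igf1, a growth factor gene, fell from 4429.5 ± 1403 to 717 ± 178 (-2.62), and Axl, a receptor for apoptotic cells, from 3376 ± 744 to 554 ± 146 (-2.60). Cd36, the fatty acid and oxidised lipoprotein receptor, fell from 17785 ± 5495 to 4184 ± 937 (-2.09), and Plin2, the lipid droplet coat gene, from 9888 ± 2246 to 2831 ± 226 (-1.80). The 7 genes that rose were Cst7, Lilrb4a, Cd52, Csf1, B2m, Timp2 and Cd9. Cst7, encoding a cysteine protease inhibitor, rose from 717 ± 98.1 to 2931 ± 58.0 (2.03, edgeR adjusted p = 3.42e-07), and Lilrb4a, an inhibitory receptor gene, from 22072 ± 872 to 61188.5 ± 1886 (1.47, edgeR adjusted p = 4.85e-08). Replicate 1 was lowest in both groups for 21 of the 35 genes, against 13.2% of all genes tested.

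Among LXR and RXR targets and cofactors, 9 of 22 genes fell (40.9%, against 11.6% of all genes) and 4 rose (18.2%, against 12.1%). The median log2 fold change was -0.08. Pltp, the phospholipid transfer protein gene, fell from 1009 ± 312 to 93.8 ± 33.8 normalized counts (log2 fold change -3.41, edgeR adjusted p = 1.34e-05), and Mertk, a receptor for apoptotic cells, from 1250.0 ± 426 to 172 ± 74.1 (-2.85, edgeR adjusted p = 0.000123). Mylip, encoding a ubiquitin ligase of lipoprotein uptake, fell from 1844 ± 242 to 1383 ± 58.3 (-0.41, edgeR adjusted p = 0.0077). Scd1 (-3.23), Smpdl3a (-0.46), Cyp27a1 (-3.27), Npc1 (-0.73) and Npc2 (-0.41) fell too. Some other genes of the list rose or did not pass. Lpcat3, a phospholipid-remodelling enzyme gene, rose from 2733 ± 121 to 5937 ± 186 (1.12, edgeR adjusted p = 7.82e-07), as did Fasn, Arl4c and Abca7, and Srebf1, the lipogenic factor gene, had 2078 ± 308 and 2341 ± 106 (0.17, edgeR adjusted p = 0.22). The related receptors had small differences. Nr1h2, encoding LXRβ, had 3211 ± 174 and 3751 ± 181 (0.22, edgeR adjusted p = 0.0274), and Rxra had 7857 ± 376 and 7556 ± 329.9 (-0.06, edgeR adjusted p = 0.519). Rxrb, another RXR gene, fell from 3629.8 ± 394 to 2755 ± 26.5 (-0.40, edgeR adjusted p = 0.00361). Apoc2, which encodes the activator of lipoprotein lipase, had 54.4 ± 1.27 and 12.6 ± 10.3 (-2.10, edgeR adjusted p = 0.0402) and did not pass, and Apoc1 was too low to test. The count of genes that fell was 5 without sham replicate 2, sham replicate 3 or EV replicate 1 and 4 without EV replicate 3.

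Among genes of lipid uptake, storage and efflux, 21 of 37 fell (56.8%, against 11.6% of all genes) and 6 rose (16.2%, against 12.1%). The median log2 fold change was -0.61. Lrp1, the APOE-binding endocytic receptor, fell from 27937 ± 7592 to 2451 ± 433 normalized counts (log2 fold change -3.51, edgeR adjusted p = 1.15e-06). Slc27a1, a fatty acid transporter, fell from 1564 ± 418 to 206 ± 14.5 (-2.92), and Fabp4, another fatty acid carrier, from 922 ± 256 to 168 ± 57.1 (-2.45). Without EV replicate 3, 13 genes of the list fell.

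Of 21 PPAR and lipid-sensing nuclear receptor genes, 5 fell (23.8%, against 11.6% of all genes) and 3 rose (14.3%, against 12.1%). The share that rose was thus near that of all genes, and the median log2 fold change was -0.22. Rara, a retinoic acid receptor gene, rose from 2602 ± 12.7 to 9366 ± 677 normalized counts (log2 fold change 1.85, edgeR adjusted p = 4.99e-08), as did Rarg and the mitochondrial carrier gene Ucp2 (0.46). Nr1d1, Nr1d2, Cpt1a and Pdk4 were among the genes that fell, and Nr1d2, a haem-binding repressor, went from 737 ± 68.3 to 361 ± 24.0 (-1.03). Pparg itself had 206 ± 54.6 and 161 ± 28.7, with overlapping groups (-0.35, edgeR adjusted p = 0.308). The count of 5 was 1 without EV replicate 1 or 3 and 2 without EV replicate 2, sham replicate 2 or sham replicate 3, and 8 genes fell with library totals only.

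Of 16 genes of osteoclasts and multinucleated giant cells, 10 fell (62.5%, against 11.6% of all genes) and only Itgb3 rose. The median log2 fold change was -0.76. Tnfrsf11a, encoding the receptor RANK, fell from 1262 ± 366 to 103 ± 38.7 normalized counts (log2 fold change -3.59, edgeR adjusted p = 1.06e-05), and Atp6v0d2, a vacuolar ATPase subunit, from 3741 ± 1017 to 1055 ± 231 (-1.82). Ctsk, the bone-degrading protease gene, fell from 752 ± 177 to 146 ± 131 (-2.38), but its replicate 1 was the highest library in both groups, at 955 and 298. Mitf, a lysosome and osteoclast transcription factor gene, fell from 768 ± 69.5 to 324 ± 39.3 (-1.24, edgeR adjusted p = 5.18e-05), while the related Tfec had 196 ± 64.6 and 178 ± 62.2 and did not pass (-0.13, edgeR adjusted p = 0.794). Without EV replicate 3, 6 genes of the list fell, and without sham replicate 1 or 2, 2 rose.

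Likeness to the lead genes was measured as the root mean square difference, over the 6 libraries, between the centred log2 profile of a gene and the mean profile of Apoe, Trem2 and Gpnmb, across 10444 genes with a mean normalized count over 100. The lead genes were chosen as lowered, so a small distance mostly reflects a similar log2 fold change. It is no evidence of a shared pattern beyond the treatment. The 5 closest genes were Tnfrsf11a at 0.0654, Lyz2 at 0.0943, Slc37a2 (a glucose-phosphate transporter of macrophages) at 0.0989, Lrp1 at 0.128 and Clec4d (a C-type lectin receptor) at 0.131. Slc37a2 had 3758 ± 1046 and 355 ± 74.5 normalized counts, and Clec4d had 2829 ± 772 and 220.2 ± 48.0 (SD, n = 3). Among the other lipid-handling genes, Abca1 was closest to the lead profile at 0.172 and Fabp5 next at 0.276. Lpl (0.669), Nr1h3 (0.822), Spp1 (1.02), Abcg1 (1.25) and Tyrobp (1.85) were further from it. The log2 was taken of CPM plus 1, which narrows differences at low levels. Nr1h3, with low counts, came behind Lpl although its log2 fold change was further from 0 (-2.48 against -2.06).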

How the data were processed

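Bulk RNA sequencing covered 3 sham-treated and 3 EV-treated cultures of bone marrow-derived eosinophils, grouped by the treatment given in the labels. The authors trimmed reads with Cutadapt and deposited estimated counts per gene from Salmon. The submitters' processing notes name mm10, and tool versions and annotation are not given in the sources used here. A second deposited table holds normalized counts (a signal), in which 1 was added to each rounded count before division by the sample's size factor. The authors' table of their own comparison (mean counts, log2 fold changes, standard errors, test statistics and p-values) was not used.

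Estimated counts were rounded and fitted with edgeR 4.0.16 in R 4.3.3 (TMM scaling, filterByExpr, quasi-likelihood test, Benjamini-Hochberg adjustment over 13498 genes, threshold 0.01, no covariate). The SE was taken as the log2 fold change over the root of F. Totals of 23697620 to 37874426 counts leave counting error below the spread between cultures except for low genes, and where cultures share mice p-values measure only the spread between these samples. Alternatives were other scalings, no filter, DESeq2 1.42.0, limma 3.58.1 on the deposited normalized counts on a log2 scale (pseudocount 1 or 10), the replicate number as a block and leaving out each sample.

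The 10 genes and all lists were chosen with earlier results of these data known. Named from each list were the 3 genes with the largest absolute log2 fold change among those that passed, did not overlap between groups and had a mean normalized count over 100, plus genes with a role in the pathway, marker genes, and the 5 genes most like Apoe, Trem2 and Gpnmb. Other genes that make up a count of 5 or fewer, and genes that differ in direction from most of their list, were named after their values were seen. Results for some genes under these rules are not reported here. Coordinates, exon lengths and shared 31-base words are from GENCODE vM21 (GRCm38), and promoters from RefSeq.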

Additional observations from a re-analysis of the deposited data

How the results depend on the processing

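Over the 10 genes, 139 of 140 alternative log2 fold changes moved by less than the spread between replicates and 0 changed direction. That spread was the root of the summed variances of the log2 values within the groups. Leaving out 1 of 3 libraries shifts a group mean by less than its SD, so those fits could hardly exceed it. Their place among the 139 is therefore no sign of robustness. The exception was Tyrobp, at 0.18 with library totals only. Leaving out 1 library at a time gave -3.90 to -3.40 for Apoe, -3.62 to -3.27 for Trem2, 0.29 to 0.37 for Tyrobp, -3.18 to -2.74 for Gpnmb, -2.26 to -1.92 for Lpl, -3.05 to -2.55 for Fabp5, -1.64 to -1.33 for Spp1, -3.86 to -3.38 for Abca1, -0.95 to -0.83 for Abcg1 and -2.83 to -2.15 for Nr1h3. Over all genes, 1036 rose with library totals only, 2478 fell at an adjusted p under 0.05, and leaving out 1 library gave 1071 to 1833 higher and 1018 to 1698 lower. For the lists, leaving out 1 library gave 1 to 2 osteoclast genes higher and 6 to 9 lower, 4 to 8 LXR and RXR genes lower, 13 to 19 lipid uptake genes lower and 1 to 6 PPAR genes lower. With library totals only, 5 TREM2-TYROBP genes rose and 8 PPAR genes fell, and without the filter 3 PPAR genes fell. By DESeq2, and without both replicate 1 libraries (added after the data were seen), 2 osteoclast genes rose, and 3 PPAR genes fell without those libraries. The fits that leave out a library have fewer samples, and for the other settings the cause was not tested. Same-numbered samples had correlations of their deviations of 0.168, 0.112 and 0.0314, and EV replicate 3 correlated best with sham replicate 2 (0.0804), so the samples were not treated as paired. The labels do not say whether same-numbered cultures share mice. With the replicate number as a block, 1794 genes rose and 1781 fell, and the log2 fold changes of the 10 genes kept their direction. Groups of 3 were not tested for outlying samples. Low counts limit the precision for Nr1h3, Apoc1 and Apoc2. The same holds for Pdk4, Nr1d1, Cyp27a1, Scd1 and Marco, which were counted among the genes that fell.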
